A study of Mus musculus with 20 samples.

Results

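The 10 genes described here encode proteins that coat lipid droplets, carry fatty acids or esterify lipids: the perilipins Plin2, Plin3 and Plin4, the fatty acid binding proteins Fabp3, Fabp5 and Fabp7, the fatty acid receptor Cd36, the esterifying enzymes Soat1 and Dgat1, and the small droplet protein Hilpda. They were chosen by name, as 10 of the 54532 genes in the count table, with earlier results of these data known, by a rule that uses no measured value. Lipid droplets are stores of triglycerides and sterol esters enclosed by a phospholipid layer, and perilipins on their surface limit the access of lipases. Fatty acid binding proteins move fatty acids through the cytosol, SOAT1 makes cholesteryl esters, and DGAT1 makes triglycerides. In the brain, droplets are known mainly from glia and ependymal cells, and their build-up in microglia and astrocytes is a known feature of ageing and of lipid storage disease.

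RNA was sequenced in bulk from 1 brain hemisphere of each mouse. There were 4 genotypes with 5 libraries each: wild type (WT), a knockout of Glb1 (Glb1KO), a knockout of Neu3 (Neu3KO) and the knockout of both genes (DKO). Glb1 encodes the lysosomal beta-galactosidase that is lost in GM1 gangliosidosis, and Neu3 encodes a sialidase that acts on gangliosides. The series title concerns NEU3 acting on GM1 ganglioside in that disease, and the comparison it names is of control with double knockout mice. The knockouts are labelled without a tissue or a driver. The labels used here state no allele, strain background, age or sex.

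The libraries held 15162311 to 25145806 counted reads, and 18336 genes had enough reads to be tested, all 10 of these among them. Glb1 lay at 18.2 to 21.8 CPM (read counts scaled by library size with the TMM method) in WT and 19.0 to 21.8 in Neu3KO, against 2.30 to 4.56 in Glb1KO and 2.39 to 5.31 in DKO. Neu3 was low everywhere and its ranges overlapped (WT 2.32 to 5.53, Glb1KO 3.18 to 4.88, Neu3KO 2.45 to 3.30 and DKO 2.07 to 4.31 CPM), so reads over the whole gene did not check that label. Each library has an identifier that starts with E, L or W, a letter whose meaning is not stated. All 5 WT libraries start with E, Glb1KO has 3 with L and 2 with E, Neu3KO has 1 with E and 4 with W, and DKO has 2 with E and 3 with W, so the letter is partly tied to genotype and its part in a result is given below as values. Each library has its own identifier, but the labels do not say outright that each is a separate animal, and the p-values measure the spread between these libraries.

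The start regions of 4 of the 6 genes called higher in DKO against WT (below) are printed for reference. RefSeq promoter windows of 300 bases (GRCm38.p6, 250 before the start and 50 after it) were found for 8 of the 10 genes, with 9 windows because Hilpda has 2. Fabp5 and Dgat1 had no entry. The window of Fabp3, also called higher in DKO, is not printed, and all 250 of its bases before the start are exonic. The sequences below run 5′ to 3′ on the gene's strand, from 250 bases before the RefSeq start through the first 5 bases from it, for the 3 perilipins and Soat1. GENCODE M21 transcripts begin earlier, so 21 of the 250 bases are exonic for Plin4, 3 for Soat1 and 1 for Plin2. The RefSeq start of Plin3 lies within the gene as the files give it, which begins at 56292873 on the minus strand, and its window holds no GENCODE exon before the start. Capitals mark matches, on either strand, to the motifs described after them. The windows are chr4:86670055-86670309 (minus strand) for Plin2, chr17:56290507-56290761 (minus strand) for Plin3, chr17:56109778-56110032 (minus strand) for Plin4 and chr1:156474324-156474578 (minus strand) for Soat1.
Plin2: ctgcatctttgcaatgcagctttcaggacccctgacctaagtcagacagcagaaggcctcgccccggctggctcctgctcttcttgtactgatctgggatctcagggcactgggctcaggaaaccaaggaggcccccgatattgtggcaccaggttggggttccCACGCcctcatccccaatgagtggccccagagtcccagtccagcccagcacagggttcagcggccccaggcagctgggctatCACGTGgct
Plin3: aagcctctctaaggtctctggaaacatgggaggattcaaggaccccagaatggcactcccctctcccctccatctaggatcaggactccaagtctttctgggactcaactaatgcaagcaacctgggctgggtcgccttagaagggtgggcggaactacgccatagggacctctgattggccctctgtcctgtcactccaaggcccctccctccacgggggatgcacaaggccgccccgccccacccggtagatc
Plin4: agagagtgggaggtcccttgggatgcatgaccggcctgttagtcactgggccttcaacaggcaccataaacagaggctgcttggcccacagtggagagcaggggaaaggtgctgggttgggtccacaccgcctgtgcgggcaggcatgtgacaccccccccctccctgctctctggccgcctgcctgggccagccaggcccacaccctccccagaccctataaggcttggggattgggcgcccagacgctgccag
Soat1: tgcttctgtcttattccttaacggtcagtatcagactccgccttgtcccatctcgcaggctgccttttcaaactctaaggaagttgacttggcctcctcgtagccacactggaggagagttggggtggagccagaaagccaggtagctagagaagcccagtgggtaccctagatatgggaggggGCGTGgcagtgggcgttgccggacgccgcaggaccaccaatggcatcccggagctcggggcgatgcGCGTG
The 5 motifs were searched on both strands of the 300-base windows. The CLEAR core CACGTG, the site of lysosomal regulators of the MiT/TFE family, occurred in 1 of the 9 windows, that of Plin2, where it begins 4 bases before the start. It is present in 7.15% of all 32851 RefSeq promoter windows. The hypoxia core ACGTG, which is contained in CACGTG, occurred in 2 of the 9 windows (Plin2 and the second of Hilpda; 19.6% of all). Its other form GCGTG occurred in 4 of the 9 (Plin2, Soat1 and both of Hilpda, 32.4% of all). The windows of Hilpda overlap, and the GCGTG of the first lies in the second as well. The full peroxisome proliferator response element (0.0396% of all) and the glucocorticoid response element (0.475% of all) occurred in none of the 9. These matches describe the letters in the window.

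In DKO against WT, 6 of the 10 genes rose and none fell. Plin4 rose 4.40-fold, Plin2 2.22-fold and Fabp5 1.93-fold, while Fabp3, Soat1 and Plin3 rose 1.34-fold, 1.33-fold and 1.31-fold. Fabp7, Cd36, Dgat1 and Hilpda did not pass the test. A gene was called where edgeR's quasi-likelihood test gave a Benjamini-Hochberg adjusted p under 0.05 over all 18336 genes, with no minimum fold. By that rule 14.0% of all tested genes were called higher and 15.1% lower in the same comparison. The median log2 fold change of the 10 was 0.42 beside -0.003 for all tested genes, and 9 of the 10 were above 0 beside 49.5% of all. Every DKO library was above every WT library for the 6 called genes, and the ranges overlapped for the other 4. Of all tested genes, 9.28% had every DKO library above every WT library and 9.35% every one below. These are bulk samples, in which more cells of a type and more RNA per cell cannot be told apart.

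**Figure D1:**
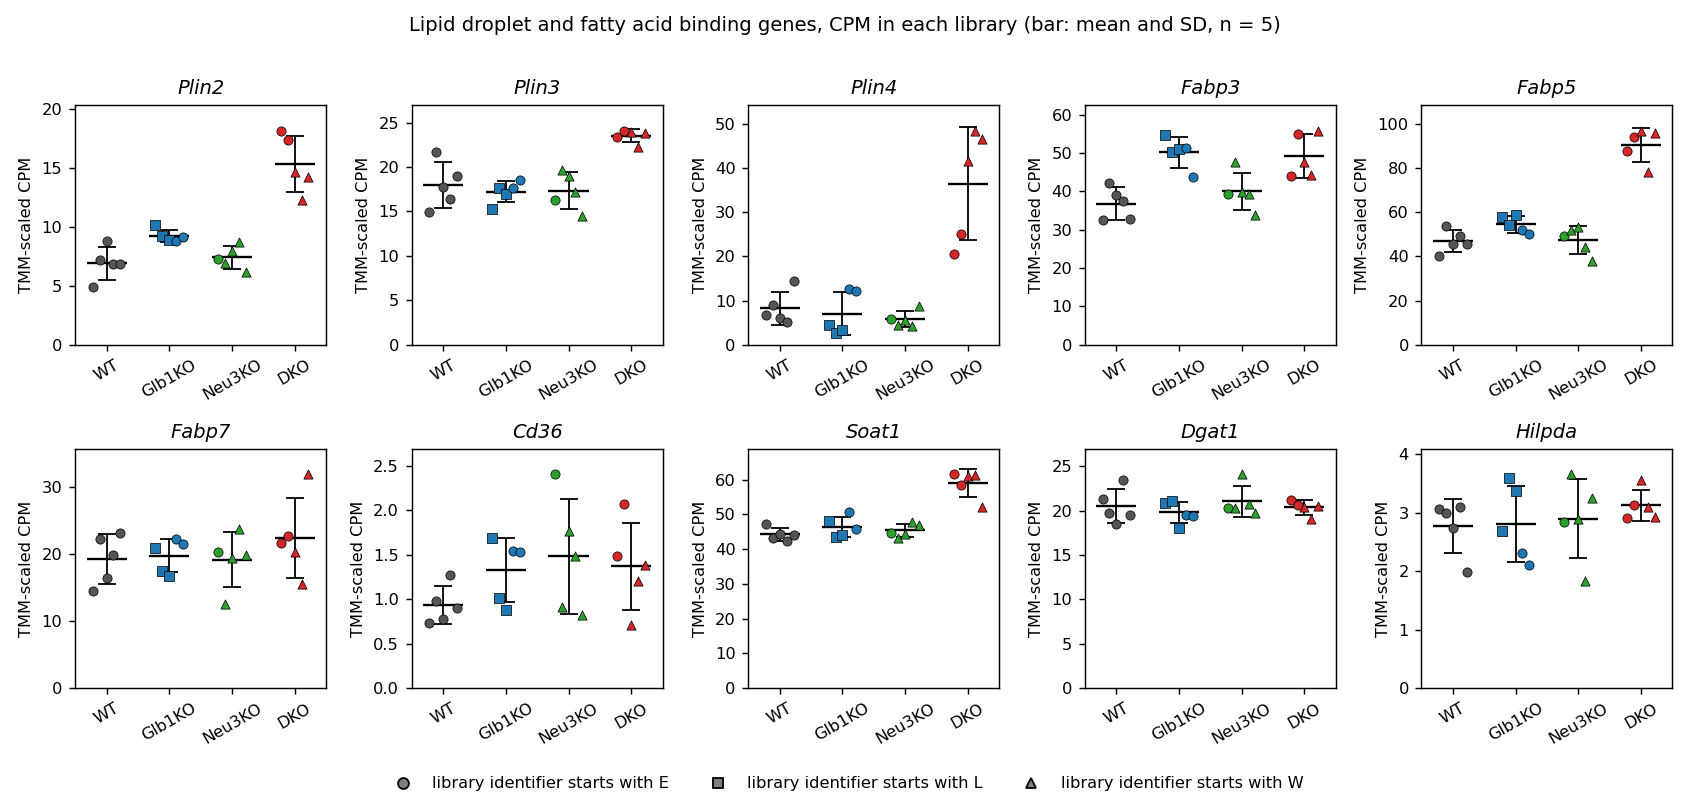
TMM-scaled CPM of each gene (vertical axis, from 0) in the 20 libraries by genotype (horizontal axis), with the mean and SD of 5 libraries as bars and the marker shape giving the first letter of the library identifier. The DKO libraries lie above every WT library for Plin2, Plin3, Plin4, Fabp3, Fabp5 and Soat1, and the Plin4 values separate by letter within DKO and Glb1KO.

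Plin2 (ENSMUSG00000028494, chr4:86648386-86670060, minus strand, GRCm38) encodes the most widely expressed droplet coat protein, which is stabilised by the lipid it covers. Its level in WT replicates 1 to 5 was 4.90, 7.19, 8.82, 6.81 and 6.85 CPM, and in DKO 18.1, 17.3, 14.6, 12.2 and 14.2 CPM. In Glb1KO it was 10.1, 9.23, 8.83, 8.79 and 9.12 CPM, and in Neu3KO 7.26, 6.92, 7.90, 8.68 and 6.17 CPM. All DKO libraries were above all others, Neu3KO lay within the WT range, and only WT replicate 3 exceeded the lowest Glb1KO library. The log2 fold change was 1.15 (SE 0.13, adjusted p = 1.38e-08) for DKO against WT and 0.42 (SE 0.13, adjusted p = 0.0714) for Glb1KO against WT, so the second did not pass. Without WT replicate 3 the latter was 0.52 (adjusted p = 0.0246), and it was also called by DESeq2 (adjusted p = 0.0479) and by edgeR with no filter on low counts (adjusted p = 0.0461). Adding Neu3 loss to Glb1 loss, DKO against Glb1KO, gave 0.73 (SE 0.13, adjusted p = 6.37e-05). Within DKO the libraries with E were at 17.3 and 18.1 CPM and those with W at 12.2 to 14.6 CPM. Among E libraries alone the DKO against WT value was 1.37 (adjusted p = 1.45e-06).

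Plin4 (ENSMUSG00000002831, chr17:56100591-56109803, minus strand) encodes a perilipin with a long repeat-rich helix, best known from adipocytes and muscle. It measured 6.74, 8.93, 6.08, 5.11 and 14.5 CPM in WT and 20.6, 25.1, 41.7, 48.4 and 46.5 CPM in DKO. It measured 4.50, 2.64, 3.41, 12.5 and 12.2 CPM in Glb1KO and 5.85, 4.47, 5.48, 4.20 and 8.71 CPM in Neu3KO. The lowest DKO library was above the highest of the other 15, and 3 Glb1KO libraries and 2 Neu3KO libraries were below every WT library. DKO against WT gave a log2 fold change of 2.14 (SE 0.40, adjusted p = 0.000675), DKO against Glb1KO 2.40 (SE 0.41, adjusted p = 0.000592) and DKO against Neu3KO 2.67 (SE 0.42, adjusted p = 0.000135).

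Plin4 also followed the identifier letter. In DKO the E libraries were at 20.6 and 25.1 CPM and the W libraries at 41.7 to 48.4, and in Glb1KO the L libraries were at 2.64 to 4.50 CPM and the E libraries at 12.2 and 12.5. In Neu3KO the single E library, at 5.85 CPM, lay within the W range of 4.20 to 8.71. With the letter as a term in the fit, the difference between DKO and WT was 1.68 on the log2 scale (adjusted p = 0.00153), and among E libraries alone it was 1.47 (adjusted p = 0.025). The difference between DKO and Glb1KO was 1.11 (adjusted p = 0.134) with the letter and 0.90 (adjusted p = 0.376) among E libraries, and was then no longer called. Among W libraries alone, an alternative chosen after seeing the data, DKO exceeded Neu3KO by 3.01 on the log2 scale. Of the 5777 exonic bases of Plin4, 17 (0.294%) are shared with Hdgfl2 on the other strand, which measured -0.11 (adjusted p = 0.212) in DKO against WT.

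Plin3 (ENSMUSG00000024197, chr17:56277476-56292873, minus strand) encodes a perilipin that is soluble in the cytosol and joins small, new droplets. It lay at 14.96, 21.7, 17.8, 16.4 and 19.0 CPM in WT and within a narrow range, at 23.4, 24.1, 23.9, 22.3 and 23.9 CPM, in DKO. Glb1KO ranged from 15.3 to 18.5 CPM and Neu3KO from 14.5 to 19.7 CPM, with 1 Neu3KO library just below every WT library. The log2 fold change was 0.39 (SE 0.09, adjusted p = 0.00154) for DKO against WT, 0.45 (SE 0.09, adjusted p = 0.000635) against Glb1KO and 0.44 (SE 0.09, adjusted p = 0.000476) against Neu3KO. With the letter in the fit the value against Glb1KO was 0.36 (adjusted p = 0.133) and was not called.

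Fabp5 (ENSMUSG00000027533, chr3:10012548-10016607, plus strand) encodes the epidermal fatty acid binding protein, which in the brain is found in glia and neurons. It measured 40.1, 53.6, 45.6, 49.4 and 45.7 CPM in WT and 87.7, 94.1, 96.9, 78.4 and 96.1 CPM in DKO. It measured 58.0, 54.3, 59.0, 51.9 and 49.96 CPM in Glb1KO and 49.3, 51.9, 53.3, 44.4 and 38.0 CPM in Neu3KO. Every DKO library was above all 15 others, and the remaining genotypes overlapped. DKO exceeded WT by 0.95 (SE 0.08, adjusted p = 5.34e-11), Glb1KO by 0.73 (SE 0.08, adjusted p = 3.20e-08) and Neu3KO by 0.93 (SE 0.08, adjusted p = 8.37e-11) on the log2 scale. Glb1KO against WT was 0.22 (SE 0.08, adjusted p = 0.138), and was called with no filter on low counts (adjusted p = 0.0343). Fabp5 had the smallest adjusted p of the 10 in DKO against WT, and its DKO calls held with the letter in the fit (0.97 against WT) and among E libraries (0.97 against WT).

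Fabp3 (ENSMUSG00000028773, chr4:130308595-130315463, plus strand), the heart-type binding protein, is carried in the brain chiefly by neurons. It measured 32.4, 42.3, 39.1, 37.3 and 32.9 CPM in WT and 43.9, 55.0, 47.6, 44.1 and 55.7 CPM in DKO. Glb1KO stood at 54.8, 50.1, 51.1, 51.3 and 43.6 CPM, and Neu3KO at 39.4, 47.5, 39.9, 39.4 and 33.8 CPM. Both genotypes that lack Glb1 were above all WT libraries and overlapped each other, a different order from the other called genes. Fabp3 was the single gene of the 10 called in Glb1KO against WT, at 0.45 (SE 0.09, adjusted p = 0.00105), where 1.75% of all tested genes were called higher and 2.21% lower. It was 0.42 (SE 0.09, adjusted p = 0.00034) in DKO against WT. DKO and Glb1KO differed by -0.03 (95% interval -0.20 to 0.14, adjusted p = 0.884). With the letter in the fit the Glb1KO value was 0.37 (adjusted p = 0.126), no longer called. Of its 823 exonic bases, 161 (19.6%) are shared with Zcchc17 and Gm10570 on the other strand, and no source used here says whether the counting took strand into account, so reads in that stretch cannot be assigned with certainty. Zcchc17 itself measured 0.01 (adjusted p = 0.944) in DKO against WT.

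Fabp7 (ENSMUSG00000019874, chr10:57784881-57788450, plus strand), the brain-type binding protein of radial glia and astrocytes, measured 14.4, 22.3, 16.4, 19.9 and 23.2 CPM in WT and 21.6, 22.7, 20.3, 15.5 and 31.9 CPM in DKO. The ranges overlapped, and 1 DKO library, replicate 5, was above all others. The log2 difference was 0.22 (95% interval -0.13 to 0.58, adjusted p = 0.402). Glb1KO ranged from 16.7 to 22.2 CPM and Neu3KO from 12.5 to 23.7 CPM. Cd36 (ENSMUSG00000002944, chr5:17781690-17888801, minus strand), a scavenger receptor that takes up fatty acids and oxidised lipoproteins, was scarce, with 13 to 60 reads per library. It measured 0.737 to 1.28 CPM in WT, 0.878 to 1.69 in Glb1KO, 0.827 to 2.41 in Neu3KO and 0.712 to 2.07 in DKO. Its difference between DKO and WT was 0.55 (95% interval -0.09 to 1.18, adjusted p = 0.219), a difference that was not distinguishable from 0 at this depth. With the letter in the fit it was 0.99 (adjusted p = 0.0431), and DKO libraries with E were at 1.48 and 2.07 CPM while those with W were at 0.712 to 1.38.

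Soat1 (ENSMUSG00000026600, chr1:156424525-156474331, minus strand) encodes the enzyme that esterifies cholesterol in the endoplasmic reticulum for storage in droplets. It lay at 47.2, 43.1, 44.4, 42.3 and 44.1 CPM in WT and at 61.5, 58.5, 61.1, 61.5 and 52.1 CPM in DKO. Glb1KO was at 48.1, 43.6, 44.0, 50.6 and 45.8 CPM, and Neu3KO at 44.7, 43.3, 44.3, 47.9 and 46.9 CPM. The 3 other genotypes shared 1 range and all 5 DKO libraries were above it. DKO exceeded WT by 0.41 (SE 0.06, adjusted p = 2.56e-06), Glb1KO by 0.34 (SE 0.06, adjusted p = 9.22e-05) and Neu3KO by 0.38 (SE 0.06, adjusted p = 1.33e-05).

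Dgat1 (ENSMUSG00000022555, chr15:76502015-76511953, minus strand), which adds the last acyl chain of triglycerides, was at 21.3, 19.7, 18.5, 23.5 and 19.5 CPM in WT and at 21.2, 20.7, 20.5, 19.0 and 20.5 CPM in DKO. Its difference was -0.01 (95% interval -0.17 to 0.15, adjusted p = 0.954), an interval that reaches neither the fold of Soat1 nor that of Plin3. Hilpda (ENSMUSG00000043421, chr6:29272488-29275446, plus strand), an inhibitor of the lipase ATGL and a known hypoxia target, was at 1.98 to 3.10 CPM in WT and 2.91 to 3.56 CPM in DKO. The ranges overlapped, and the difference was 0.17 (95% interval -0.21 to 0.56, adjusted p = 0.568). Dgat1 ranged from 18.1 to 24.1 CPM and Hilpda from 1.83 to 3.65 CPM over both single knockouts.

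**Figure D2:**
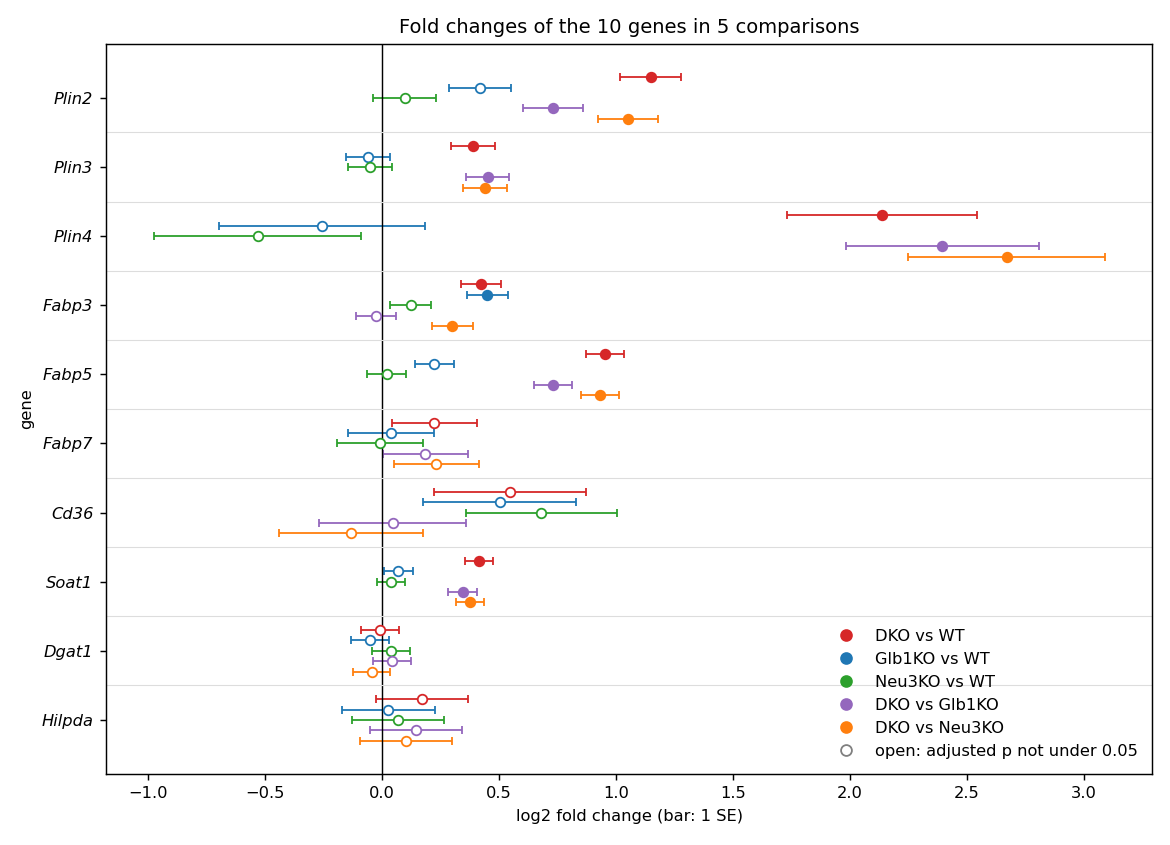
Log2 fold change of each gene (horizontal axis, bars 1 SE) in the 5 pairwise comparisons, with filled points where the adjusted p is under 0.05. The 3 comparisons with DKO lie together for Plin3, Plin4, Fabp5 and Soat1, while for Fabp3 the Glb1KO against WT value of 0.45 stands beside 0.42 for DKO against WT.

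The single knockouts and the double knockout were then set side by side. In Neu3KO against WT none of the 10 genes was called, nor was any of the 18336 genes (0%, smallest adjusted p 0.116), although 1105 genes had an unadjusted p under 0.05 and DESeq2 called 2. Of the 10, Cd36 had the largest Neu3KO value, 0.68 (adjusted p = 0.823), with 1 library, replicate 1, at 2.41 CPM. In DKO against Glb1KO, 5 of the 10 rose (Plin2, Plin3, Plin4, Fabp5 and Soat1), where 8.41% of all tested genes were called higher and 7.29% lower. In DKO against Neu3KO, 6 of the 10 rose, where 12.3% of all tested genes were called higher and 12.8% lower. These were the same 5 genes and Fabp3, at 0.30 (SE 0.09, adjusted p = 0.00985), whose ranges overlapped. Among E libraries, where the spread of the single Neu3KO library is taken from the other groups, Plin3 (0.55, adjusted p = 0.108), Plin4 (1.97, adjusted p = 0.12) and Fabp3 (0.34, adjusted p = 0.349) were not called against Neu3KO. The values of Plin3 and Fabp3 were no smaller there than over all libraries (0.44 and 0.30). That of Plin4 was smaller, at 1.97 beside 2.67 over all libraries. Soat1 (0.33, adjusted p = 0.0554) was not called against Glb1KO among E libraries. Among W libraries, all 6 were called against Neu3KO. The comparisons share libraries, DKO in 3 of them and WT in 3, so they are not independent of each other.

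The interaction, (DKO minus Glb1KO) minus (Neu3KO minus WT), tests whether Neu3 loss changes a gene differently when Glb1 is also lost. It was called above 0 for 5 of the 10 genes and below 0 for none, where 3.96% of all tested genes were called above 0 and 2.88% below. Plin4 had an interaction of 2.93 (SE 0.61, adjusted p = 0.00612), Fabp5 0.71 (SE 0.12, adjusted p = 8.18e-05) and Plin2 0.63 (SE 0.18, adjusted p = 0.03). Plin3 followed with 0.50 (SE 0.13, adjusted p = 0.0152) and Soat1 with 0.31 (SE 0.09, adjusted p = 0.0253). The summed log2 changes of the single knockouts were 0.51 for Plin2, 0.24 for Fabp5 and -0.79 for Plin4, below the DKO values of 1.15, 0.95 and 2.14. For Fabp3 the sum was 0.57 beside 0.42 in DKO, and its interaction was -0.15 (adjusted p = 0.581). With the identifier letter in the fit, Fabp5 (0.81, adjusted p = 0.000244) and Plin4 (2.14, adjusted p = 0.0126) were still called while Plin2 (0.62, adjusted p = 0.0862), Plin3 (0.44, adjusted p = 0.106) and Soat1 (0.25, adjusted p = 0.17) were not. Among E libraries Neu3KO keeps 1 library, which that fit assumes to vary like the other groups, and only Fabp5 was called (0.77, adjusted p = 0.0175). The Plin2 interaction also lost its call without any 1 of WT replicate 3, Glb1KO replicate 3, Neu3KO replicates 2 or 5, or DKO replicates 1 or 2 (adjusted p up to 0.0829). That of Soat1 lost it without Glb1KO replicates 2 or 3 or DKO replicate 4 (adjusted p up to 0.0561), and with no filter on low counts (adjusted p = 0.074).

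Levels between genes were compared per length, from the deposited FPKM (fragments scaled by gene length and library size). In WT, Fabp3 was highest at 44.3 ± 5.11 FPKM (SD, n = 5), followed by Fabp7 at 15.2 ± 2.99, Fabp5 at 13.02 ± 1.40 and Dgat1 at 6.65 ± 0.617. Plin3 was at 4.70 ± 0.677 FPKM, Soat1 at 4.47 ± 0.191, Hilpda at 2.49 ± 0.417, Plin2 at 1.95 ± 0.395, Plin4 at 1.42 ± 0.644 and Cd36 at 0.258 ± 0.059. The ranges of neighbours overlapped for Fabp7 and Fabp5, Plin3 and Soat1, Hilpda and Plin2, and Plin2 and Plin4. The binding proteins were thus the most abundant transcripts of the 10 per length, and Plin2 and Plin4 among the least. In DKO the order was Fabp3 at 59.5 ± 6.94 FPKM, Fabp5 at 25.2 ± 2.14, Fabp7 at 17.8 ± 4.76, Dgat1 at 6.63 ± 0.27, Plin4 at 6.27 ± 2.19, Plin3 at 6.17 ± 0.187 and Soat1 at 5.98 ± 0.406. Plin2 followed at 4.33 ± 0.682 FPKM, Hilpda at 2.81 ± 0.233 and Cd36 at 0.379 ± 0.136. Fabp5 was above Fabp7 in 5 of 5 DKO libraries and below it in 5 of 5 WT libraries, though the ranges overlapped in both genotypes. That order rests on the annotated gene lengths, 3567 bases for Fabp5 and 1250 for Fabp7. By CPM, which takes no account of length, Fabp5 was above Fabp7 in WT as well (means 46.9 and 19.2). By its mean, Plin4 moved from the ninth place to the fifth. In DKO its range overlapped those of Dgat1, which was above it in 2 of 5 libraries, and Plin3, which was below it in 3 of 5. The DKO libraries with E had Plin4 at 3.54 and 4.32 FPKM and those with W at 7.15 to 8.33. In Glb1KO, Fabp3 was at 60.5 ± 4.998 FPKM, Plin2 at 2.60 ± 0.15 and Plin4 at 1.21 ± 0.837. In Neu3KO, Plin4 was at 0.988 ± 0.311 FPKM.

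**Figure D3:**
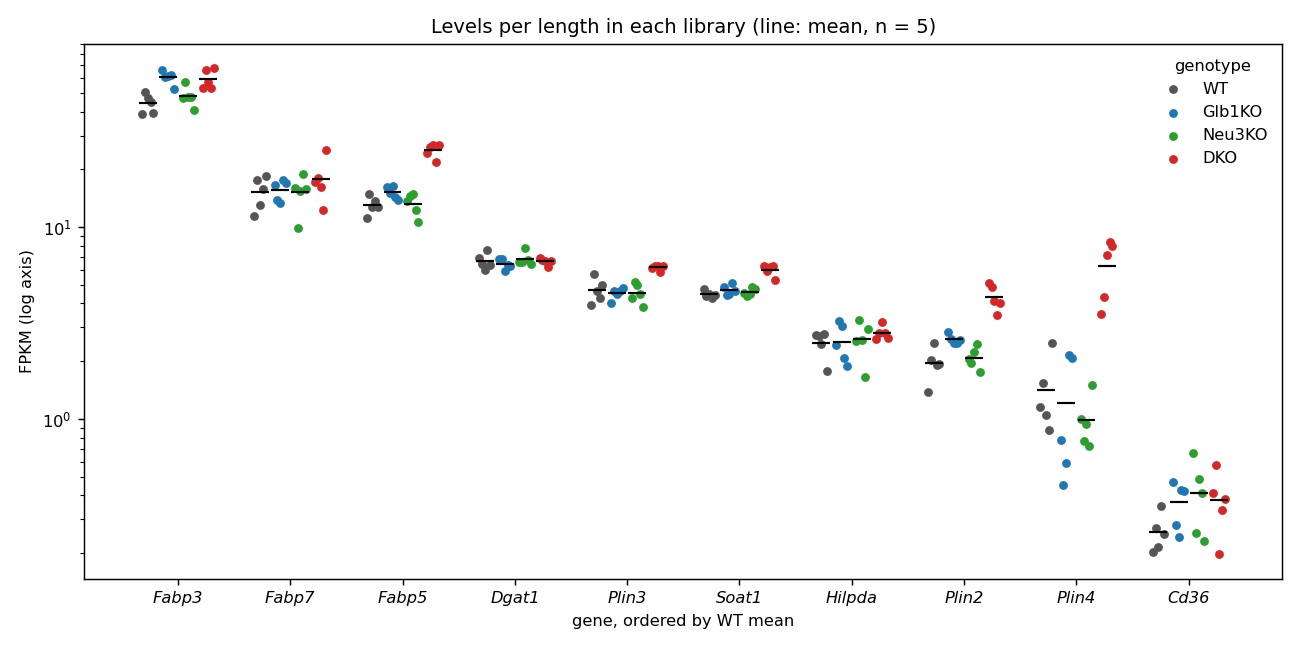
Deposited FPKM (log axis) of the 10 genes in every library, ordered by the WT mean, with the mean of 5 libraries as a line. Fabp3 is highest in every genotype and Cd36 lowest by mean, and the DKO points of Plin4 (3.54 to 8.33 FPKM) stand above those of the other genotypes.

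The 10 genes did not move as a block within a genotype. After each genotype's mean was subtracted, the Pearson correlation of log2 CPM between 2 of the genes over the 20 libraries was above 0 for 27 of 45 pairs and below 0 for 18, with a median of 0.08. The extremes were 0.76 (Fabp3 and Fabp5) and -0.60 (Fabp7 and Hilpda). Differences between libraries in RNA quality, cell makeup or identifier letter were not removed, so these values describe the libraries.

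The genes with the pattern most like each called gene were read from 14057 protein-coding genes with a mean of at least 1 CPM, by Pearson's r of log2 CPM over the 20 libraries, which includes the difference between genotypes. For Plin2 they were Hcls1 (0.97), Rnase4 (0.96) and Il13ra1 (0.96), and within genotypes Hcls1 still had 0.82. For Fabp5 they were Npc2 (0.97), which carries cholesterol out of the lysosome, Angpt1 (0.97) and Ctsl (0.97), a lysosomal protease. For Soat1 they were Gpam (0.93), Igf1 (0.93) and Endou (0.92), and for Plin3 Lpxn (0.90), Gnai2 (0.88) and Capn2 (0.88). For Plin4 they were Ntrk2 (0.91), Fkbp5 (0.90) and Rapgef3 (0.90), of which Fkbp5, a glucocorticoid-induced immunophilin, had the highest value within genotypes, 0.78. Values within genotypes have the genotype's mean subtracted but not the identifier letter, which Plin4 followed in DKO and Glb1KO. For Fabp3 they were Cuedc2 (0.90), Atp6v1b2 (0.89) and Asna1 (0.88).

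Other genes of droplet biology were read from 7 lists holding 86 genes, of which 69 were tested. In DKO against WT 17 of the 69 rose and 8 fell, with a median log2 fold change of 0.04, against 14.0% higher and 15.1% lower among all tested genes. Of 10 tested genes of droplet coat and formation, 2 rose and 1 fell. Hsd17b11, a droplet-bound dehydrogenase, rose by 0.46 (adjusted p = 6.23e-05), Cidea, which promotes droplet fusion, rose by 0.76 (adjusted p = 0.0191), and Fitm2, needed for budding of droplets, fell by 0.27 (adjusted p = 0.0045). Rab18 (0.13, adjusted p = 0.092) and the seipin gene Bscl2 (0.01, adjusted p = 0.917) did not pass, and Plin5 measured 0.28 (adjusted p = 0.615).

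Glycerolipid synthesis was divided, with 4 of 14 tested genes higher and 3 lower. Gpam, the mitochondrial enzyme of the first acylation step, rose by 0.94 (adjusted p = 1.48e-13) and Dgat2, the other triglyceride-forming enzyme, by 0.26 (adjusted p = 0.00654). Agpat4 fell by 0.51 (adjusted p = 6.83e-06) and Agpat1 by 0.29 (adjusted p = 0.000372), both enzymes of the second acylation step, while their relative Agpat3 was at 0.04 (adjusted p = 0.545). Gpam was near 0 in Glb1KO (0.04, adjusted p = 0.838) and Neu3KO (-0.01, adjusted p = 0.993) against WT, and its interaction was 0.91 (adjusted p = 9.61e-09).

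Of 8 tested genes of neutral lipid breakdown, 2 rose and none fell. Mgll, which cleaves monoglycerides, rose by 0.42 (adjusted p = 3.62e-06) and Lipa, the lysosomal acid lipase, by 0.51 (adjusted p = 9.65e-05). Pnpla2, which encodes ATGL, measured 0.25 (adjusted p = 0.0712) and Nceh1, a cholesteryl ester hydrolase, 0.12 (adjusted p = 0.0507). Of 12 tested genes of uptake and activation, 1 rose, 4 fell and 7 were not called. Lpl, lipoprotein lipase, rose by 0.46 (adjusted p = 0.00068), whereas the transport proteins Slc27a4 and Slc27a1 fell by 0.27 (adjusted p = 0.000428) and 0.23 (adjusted p = 0.00524) and the lipoprotein receptor Vldlr by 0.21 (adjusted p = 0.0153). The acyl-CoA synthetases Acsl3 (0.11, adjusted p = 0.144) and Acsl6 (-0.03, adjusted p = 0.7) did not pass.

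Of 8 further fatty acid and acyl-CoA binding genes only Dbi, the acyl-CoA binding protein, had enough reads to be tested. It rose by 0.88 (adjusted p = 6.10e-06), beside 0.95 for Fabp5. Among 10 PPAR and RXR genes with classical targets, Ucp2 rose by 1.22 (adjusted p = 3.17e-09) and Angptl4 by 1.05 (adjusted p = 0.0319), and none fell. The target Pdk4 (0.25, adjusted p = 0.0766) and the receptors Rxra (-0.002, adjusted p = 0.985) and Rxrb (-0.13, adjusted p = 0.138) did not pass. Fatty acid oxidation had 5 of 14 tested genes higher and none lower, among them Acadl (0.35, adjusted p = 0.000629), Hadh (0.35, adjusted p = 0.00196) and Cpt2 (0.33, adjusted p = 0.0231). In Glb1KO against WT 3 of the 69 genes were higher and 1 lower, beside 1.75% and 2.21% of all tested genes, and in Neu3KO against WT none was called. The interaction had 3 of 69 above 0 and 3 below, near the shares of 3.96% and 2.88% among all tested genes.

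**Figure D4:**
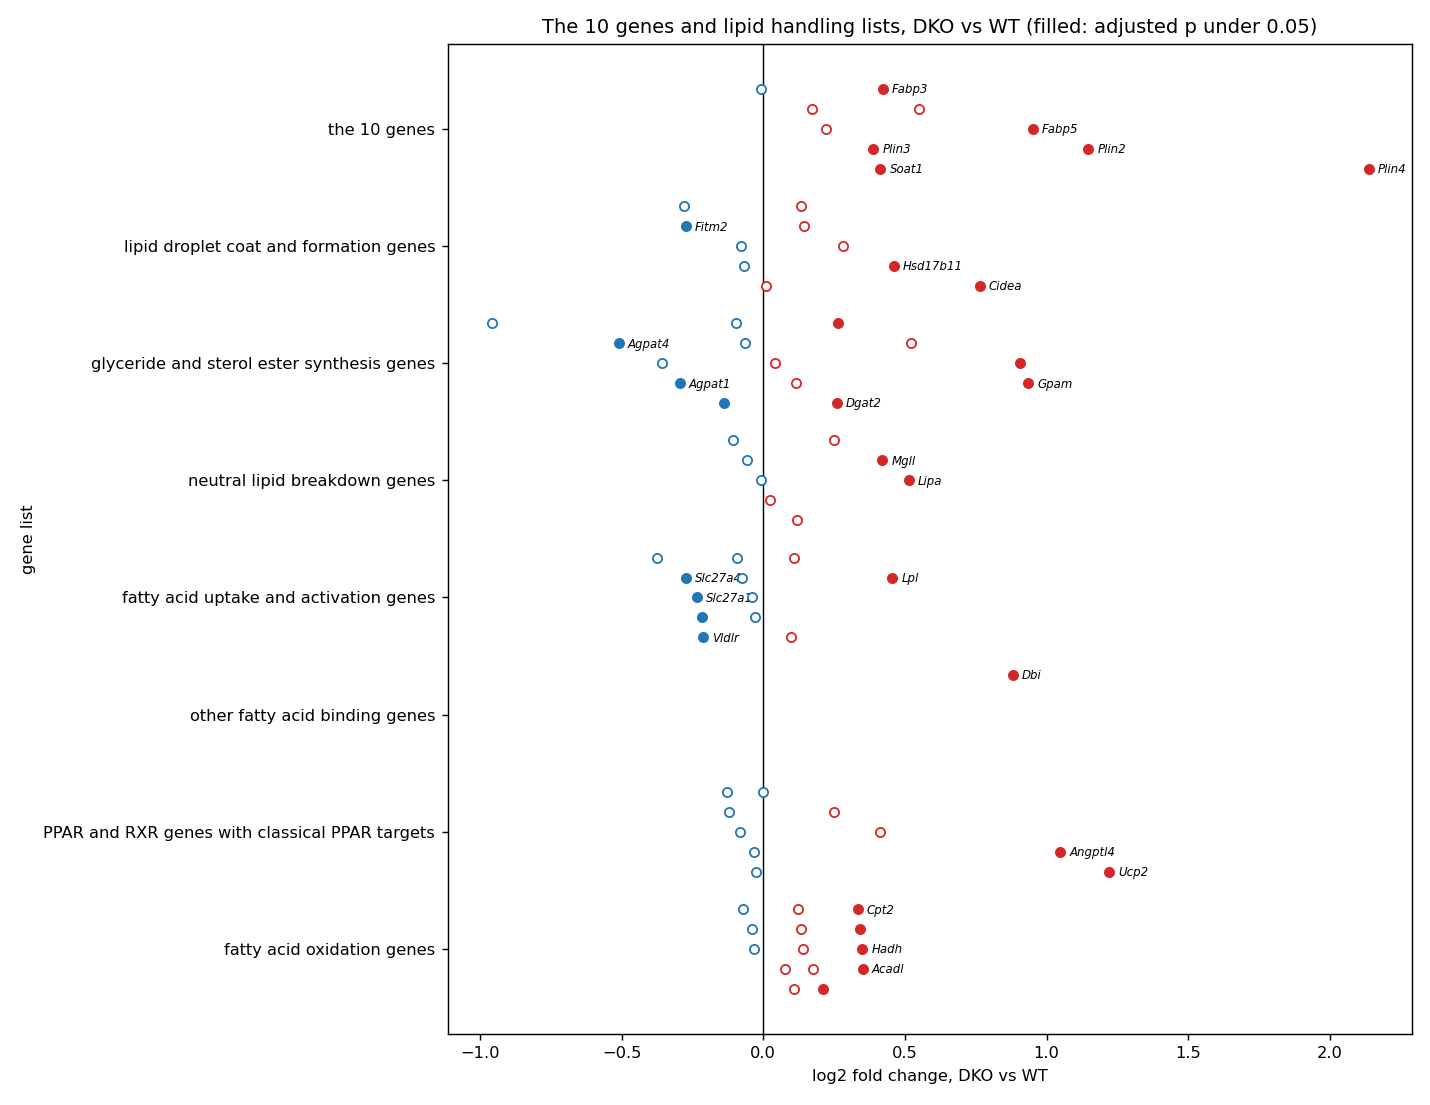
Log2 fold change in DKO against WT (horizontal axis) of the 10 genes and of the tested genes of the 7 lists (rows), filled where the adjusted p is under 0.05, with the named genes labelled. Plin4, at 2.14, lies farthest from 0 of all genes shown, and the called genes of glyceride synthesis and of uptake lie on both sides of 0.

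Markers of cell types moved with the same libraries. The summed level of 6 microglia markers was 173 to 210 CPM in WT, 239 to 247 in Glb1KO, 206 to 230 in Neu3KO and 339 to 444 in DKO, and 4 of the 6 rose in DKO against WT. In DKO replicates 1 to 5 the sum was 433, 444, 400, 339 and 394 CPM. The Plin2 values given above for these libraries were 18.1, 17.3, 14.6, 12.2 and 14.2 CPM. Of the other called genes, Plin3 (22.3 CPM) and Fabp5 (78.4 CPM) were also lowest in replicate 4. Plin4 was highest there (48.4 CPM), while Soat1 was lowest in replicate 5 (52.1 CPM) and Fabp3 in replicate 1 (43.9 CPM). DKO replicates 1 and 2 start with E and the others with W. In WT the sum was 173, 209, 210, 203 and 207 CPM, and replicate 1 also had the lowest Plin2 value. In Glb1KO it was 247, 239, 245, 245 and 241 CPM, and replicate 1 also had the highest Plin2 value. In Neu3KO it was 206, 229, 217, 212 and 230 CPM, and replicate 5, with the highest sum, had the lowest Plin2 value. The 2 microglia markers not called were P2ry12 (0.21, adjusted p = 0.191) and Tmem119 (0.19, adjusted p = 0.247). Border macrophage markers summed to 5.11 to 7.80 CPM in WT and 15.4 to 20.01 in DKO, with 3 of 5 higher. Astrocyte markers summed to 3779 to 3833 CPM in WT and 4323 to 4684 in DKO, with 4 of 5 higher, Aqp4 by 1.60 and Slc1a2 at -0.01 (adjusted p = 0.908). Oligodendrocyte markers fell in 5 of 5 genes both in DKO against WT (median -0.76) and in Glb1KO against WT (median -0.80), and 2 of 5 neuron markers fell in DKO. Endothelial markers summed to 126 to 158 CPM in WT and 109 to 137 in DKO, with 1 of 5 lower. The part of these shifts in the values of the 10 genes was not tested.

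Markers of fat and muscle were measured in the same way because Plin4 and Cd36 are prominent there. Those of red blood cells, choroid plexus, pericytes and fibroblasts were measured too. The 4 adipocyte markers summed to at most 0.843 CPM in any library, none had enough reads to be tested, and Plin1, the perilipin of fat cells, had at most 7 reads in a library. Skeletal muscle markers summed to 4.68 to 7.02 CPM in WT and 4.08 to 7.22 in DKO. Red blood cell markers ranged from 87.4 to 151 CPM in WT and from 92.4 to 281 in DKO, and choroid plexus markers from 426 to 815 and from 503 to 730 CPM, with none called in either list. Pericyte and fibroblast markers summed to 102 to 128 CPM in WT and 115 to 137 in DKO, with 2 of 5 higher and 1 lower.

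The authors' deposited table of DKO against WT gives log2 fold changes of 1.15 for Plin2, 2.14 for Plin4, 0.96 for Fabp5, 0.43 for Fabp3, 0.42 for Soat1 and 0.39 for Plin3. In the authors' deposited table the adjusted p of Plin2 is 1.21e-12 and that of Plin3, the largest of the 6, 0.000864, while those of Fabp7, Cd36, Dgat1 and Hilpda lie between 0.276 and 0.982.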

How the data were processed

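Polyadenylated RNA from 1 brain hemisphere per mouse was sequenced in 20 libraries, 5 for each of 4 genotypes. The submitters' processing notes name HISAT2 2.0.5 and the read trimmer fastp, DESeq2 1.20.0, featureCounts 1.5.0-p3 and the builds mm10 and GRCm38. The authors deposited raw read counts per gene and, per the file headers, FPKM per gene. The authors' deposited comparison table of DKO with WT holds log2 fold changes and p-values.

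Counts were tested with edgeR 4.0.16 (R 4.3.3): filterByExpr, TMM scaling, 1 mean per genotype over all 20 libraries, the robust quasi-likelihood F test and Benjamini-Hochberg adjustment over 18336 genes at 0.05. CPM values are TMM-scaled, and correlations use log2 CPM with a prior count of 2. Levels between genes come from FPKM. The fit was tested on simulated data. Totals of 15162311 to 25145806 reads set the precision: Cd36 rests on 13 reads in its lowest library and Fabp5 on at least 597. Alternatives were RLE factors, library size alone, DESeq2 1.42.0, other filters, a replicate block, the identifier letter, E libraries alone, the compared genotypes alone and each library left out. Among 40 same-genotype pairs no 2 libraries were alike (lowest chi-square per gene 3.44). WT replicate 1 stood apart from its group, at 21.9 to 29.8 against the other WT libraries, whose own pairs were at 3.44 to 5.51.

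The 10 genes and all lists were chosen with earlier results of these data known. All 10 are named. Of each list, the 4 genes of smallest adjusted p in DKO against WT and the 2 highest in WT FPKM are named, and for each called gene the 3 with the most similar pattern. Some genes that this rule names are not reported here. Plin1, Plin5 and the marker genes given singly were chosen after their values were seen.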

Additional observations from a re-analysis of the deposited data

Results flagged for a closer look

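Dgat1 stood at 24.1 CPM in Neu3KO replicate 3, away from the other 4 Neu3KO libraries, which lay between 19.8 and 20.8 CPM. This was 1 of 40 groups of 5 libraries examined, where chance sets apart about 1 group in 20.

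For 5 genes the interaction term of the edgeR fit over all libraries was called, a difference in the effect of Neu3 loss with the state of Glb1. The interaction was 2.93 for Plin4, 0.71 for Fabp5, 0.63 for Plin2, 0.50 for Plin3 and 0.31 for Soat1 on the log2 scale. Neu3 loss alone moved them by -0.53, 0.02, 0.10, -0.05 and 0.04, none of them called, and Neu3 loss on top of Glb1 loss by 2.40, 0.73, 0.73, 0.45 and 0.34, all of them called. With the identifier letter in the fit, Plin2 (adjusted p = 0.0862), Plin3 (adjusted p = 0.106) and Soat1 (adjusted p = 0.17) were not called, and among E libraries, with 1 Neu3KO library, Fabp5 alone was. Plin2 and Soat1 also lost the call without certain single libraries (adjusted p up to 0.0829 and 0.0561).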

How the results depend on the processing

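The alternatives that keep every library of a group or choose them by letter gave 540 values of the 10 genes. Of these, 518 kept their side of the threshold, 18 lost the call, 4 gained it and no called value changed sign. The 518 include values called in neither fit. The main fit called 6 of the 10 in DKO against WT, 1 in Glb1KO against WT and 0 in Neu3KO against WT. It called 5 in DKO against Glb1KO, 6 in DKO against Neu3KO and 5 in the interaction. In DKO against WT the 6 genes stayed called in each of these alternatives and with any 1 library left out. No library left out moved an unlogged fold of the 10 genes by over 1.5 times, though on the log2 scale Cd36, called in none of these, went from 0.68 to 0.42 in Neu3KO against WT without Neu3KO replicate 1 and from -0.13 to 0.14 in DKO against Neu3KO. Genes called of the 10 in Glb1KO against WT numbered 2 with DESeq2, 3 with no filter, 0 with the identifier letter and 0 among E libraries. In DKO against Glb1KO they numbered 3 with the letter and 2 among E libraries, in DKO against Neu3KO 3 among E libraries, and in the interaction 2 with the letter and 1 among E libraries. With 1 library left out they numbered 1 to 2 in Glb1KO against WT (2 without WT replicate 3) and 3 to 5 in the interaction (3 without Glb1KO replicate 3).

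Over all genes, those called in DKO against WT went from 5323 to 3363 with the letter and 2583 among E libraries, in Glb1KO against WT from 726 to 315 and 323, and in DKO against Glb1KO from 2879 to 1203 and 901. DKO against Neu3KO went from 4606 to 4930 with the letter and 882 among E libraries, and the interaction from 1255 to 1111 and 183, where 1 Neu3KO library is assumed to vary like the other groups. Neu3KO against WT called 2 genes with DESeq2, 26 with no filter, 1 among E libraries, 3 with these genotypes alone, and 0 to 1 with 1 library left out (1 without WT replicate 1 or 2). E and letter fits rest on fewer libraries or spend terms on the letter, and the cause was not tested. The median log2 change of all genes stayed within 0.05 of 0 under each scaling.

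Same-numbered libraries did not deviate together over all tested genes (r from -0.13 to 0.06 over 30 pairs, 0 above 0.1). A shared litter or day that moves few genes could go unseen in such values, and the labels used here state none. With the replicate block, 6 of the 10 genes were called in DKO against WT, 1 in Glb1KO against WT, 5 in DKO against Glb1KO, 6 in DKO against Neu3KO and 5 in the interaction. Over all genes the block gave 5207, 685, 2774, 4448 and 1136 in the same order, and 0 in Neu3KO against WT.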
